A study of Mus musculus with 6 samples.

Results

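Zinc finger genes whose mouse symbol is Zfp followed by a number were examined in 6 RNA sequencing libraries, 3 labelled aged (mice of 18 months) and 3 labelled young (mice of 3 months), all with lung as the labelled tissue. The set holds each protein-coding gene of that name form, with or without 1 letter after the number, whose mean over the 6 libraries was at least 3 FPKM, a read level corrected for gene length and depth. That is 168 of 391 protein-coding Zfp-numbered genes, in a table of 54532 genes. The members were thus chosen by their measured mean FPKM, and these levels are given as a description. The labels give no strain, sex, genotype or treatment that separates the groups. Whether each library is a different mouse is not stated, so a p-value here reflects the spread from library to library, which may be technical.

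Most Zfp-numbered genes encode proteins with C2H2 zinc fingers, in which a pair of cysteines and a pair of histidines hold a zinc ion and exposed side chains read DNA bases, and short conserved linkers join the fingers into arrays. Many also carry a KRAB box near the start of the protein, which binds TRIM28 (KAP1). TRIM28 in turn brings in histone methyltransferase and heterochromatin proteins, and KRAB zinc finger proteins are best known for silencing retroelements and for keeping imprints. Genes with KRAB boxes often stand in tandem clusters, while members without one include factors shared by most cell types, and a few proteins with other kinds of finger that bind RNA or ubiquitin targets.

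The repeated unit of the family is visible in the coding sequences of members with large differences. A finger with its linker from each of 4 genes is shown from the GENCODE coding sequence on GRCm38 (mm10), plus strand, with the codons of the zinc-binding cysteines and histidines in capitals and the 5 linker codons (threonine, glycine, glutamate, lysine, proline) at the end. Zfp605 (chr5:110128104-110128181) and Zfp958 (chr8:4628541-4628618) were higher in the libraries labelled aged, and Zfp775 (chr6:48619509-48619586) and Zfp970 (chr2:177475115-177475192) were lower.
Zfp605: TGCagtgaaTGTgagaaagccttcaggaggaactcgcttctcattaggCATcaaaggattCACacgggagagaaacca
Zfp958: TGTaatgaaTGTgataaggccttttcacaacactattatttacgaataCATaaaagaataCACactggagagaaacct
Zfp775: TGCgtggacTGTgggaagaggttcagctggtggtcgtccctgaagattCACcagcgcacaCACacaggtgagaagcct
Zfp970: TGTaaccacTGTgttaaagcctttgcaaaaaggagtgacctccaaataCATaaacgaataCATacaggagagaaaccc
Each unit is 78 bases, or 26 codons, long. The search asked for this spacing and this linker, so the length, the places of the capitals and the linker's 5 amino acids were set by it. Many of the codons between the capitals differ. Zfp428 and Zfp395, whose differences are given below, hold no such linker and were passed over.

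Whole reads recovered from the FPKM numbered 16649061 or more in each library labelled aged, at most 16906850, and from 17266815 up to 17456715 in each library labelled young. The contents of all 6 libraries went against the lung label: none of the 6 lung markers passed 0.855 FPKM in any library, Pecam1 (endothelium) stayed at or under 0.322 FPKM and Ptprc (leukocytes) at or under 0.0953 FPKM, while Vim (mesenchymal cells) lay between 478 and 506 FPKM and Col1a1 between 153 and 251 FPKM. Kidney markers stood apart in libraries labelled young: their summed level was 131.76 FPKM in replicate 1, with 5 of 6 markers at or above 1 FPKM, 25.8 FPKM in replicate 3, with 3 of 6, and 0.471 FPKM in replicate 2, against 0.740 to 1.11 FPKM with 0 of 6 in each library labelled aged. Col1a1, Col1a2 and Mki67, a proliferation marker, also moved with the labels. Col1a1 was at 153 to 184 FPKM in the libraries labelled aged and 236 to 251 FPKM in those labelled young. Col1a2 was at 215 to 229 and 331 to 339 FPKM in the same order, and Mki67 at 52.5 to 56.6 and 73.9 to 77.6 FPKM. The groups overlapped for Top2a, the other proliferation marker (112 to 121 and 114 to 119 FPKM), and for Vim. Pdgfrb, another mesenchymal marker, was slightly higher in the libraries labelled aged. It was at 22.13 to 24.0 FPKM there and at 21.0 to 22.09 FPKM in those labelled young. Cd68, a lysosomal protein used as a macrophage marker, was at 15.5 to 16.7 FPKM in the libraries labelled aged, against 5.85 to 7.70 FPKM in those labelled young. The part of these differences in the results below was not tested. In bulk RNA, fewer cells of a type and less RNA per cell cannot be told apart.

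The 168 genes were expressed at low levels. Their mean FPKM ran from 3.01 to 42.6 with a median of 5.51, against a median of 11.9 FPKM over all protein-coding genes at or above 3 FPKM; 71 members lay under 5 FPKM, 134 under 10 FPKM and 8 at or above 20 FPKM. A member had between 81 and 4650 reads in a library (median 466), and the median coefficient of variation between libraries of a group was 5.28%. Of the 223 Zfp-numbered genes under the threshold, 108 had a mean of at least 1 FPKM and 13 had no read at all.

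At the edge of the threshold the levels are close on both sides. The lowest members were Zfp599, at 2.82, 2.64 and 2.69 FPKM in the libraries labelled aged and 3.31, 3.46 and 3.11 FPKM in those labelled young, Zfp961, with group means of 3.15 and 2.96 FPKM, and Zfp748, with 3.16 and 2.96 FPKM. Just outside stood Zfp933 with a mean of 2.99 FPKM and Zfp319 and Zfp945, each with 2.96 FPKM. For 17 members 1 group mean was under 3 FPKM, so that the other group carried them past the threshold. Of these 17, 13 were called, while 60% of all tested genes were. A difference between the groups was built into how these 17 were picked, so this count is no result about them.

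Between the libraries labelled aged and those labelled young, Zfp-numbered genes moved in both directions and by small amounts. By limma with Benjamini-Hochberg adjustment over 15197 tested genes and a threshold of 0.05, 38 members were higher and 44 lower in the libraries labelled aged, and 86 were not called. The background was large: 60% of all tested genes were called (27.7% higher, 32.3% lower), and 70.6% of protein-coding genes at or above 3 FPKM (30.8% higher, 39.8% lower), against 48.8% of the members. The groups did not overlap in 101 members, beside 66.9% of all tested genes and 76.4% of protein-coding genes at or above 3 FPKM. After centring each library on its median tested gene the split was 56 higher and 29 lower. Leaving out the 2 libraries labelled young that held kidney transcripts left replicate 2 as the only library labelled young. The spread in that fit came from the libraries labelled aged alone, so only its differences are given, here and below. The members' median log2 difference was 0.0028 in that fit, against -0.023 with all libraries.

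**Figure D1:**
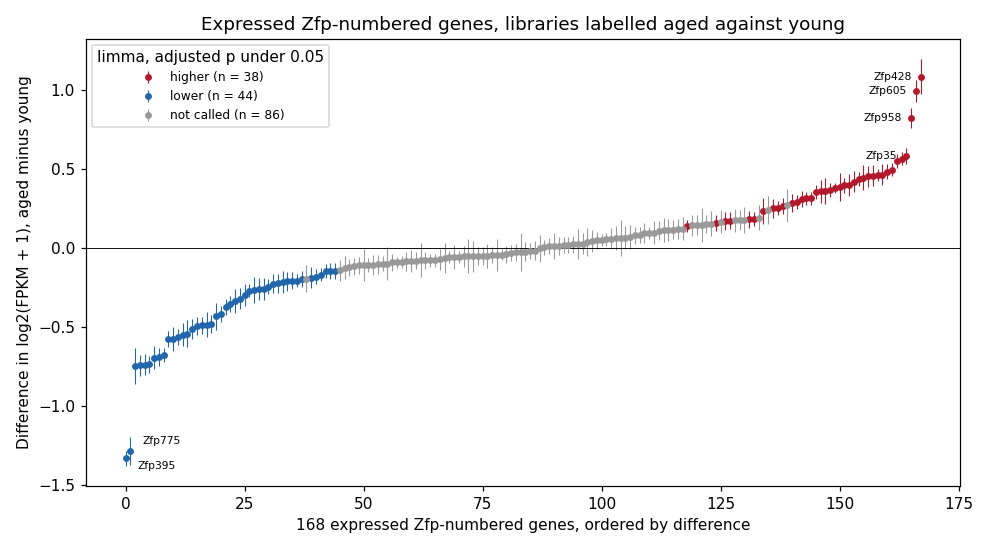
Difference in log2(FPKM + 1), libraries labelled aged minus libraries labelled young, for each of the 168 genes in rising order; points are limma estimates and bars their standard errors, coloured by the call. Most genes lie near 0, with Zfp428 and Zfp605 at the upper end (1.08 and 0.99) and Zfp395 and Zfp775 at the lower end (-1.33 and -1.28).

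The median absolute difference was smaller over members than over all tested genes. The median difference was -0.02 in log2(FPKM + 1) over members and -0.03 over all tested genes, and the median absolute difference was 0.17 over members, 0.28 over all tested genes and 0.27 over protein-coding genes at or above 3 FPKM. Called differences of at least 2-fold in mean FPKM were found in 4 members (2.38%, against 6.1% of protein-coding genes at or above 3 FPKM), and of at least 1.5-fold in 24 members (14.3%, against 21.4%), of which 6 were higher and 18 lower. In 8 of these 24 a group mean was under 3 FPKM, so that they passed the threshold through the group where they were high. Among the 86 members not called, the 95% interval of the difference in log2(FPKM + 1) lay within a 1.2-fold change of FPKM + 1 for 57, which allows a somewhat larger ratio of FPKM in low members.

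The lower share of calls was seen at each level of expression. Of members with means of 3 to 5 FPKM 40.8% were called (29 of 71), beside 65.2% of other protein-coding genes in that range. Between 5 and 10 FPKM the shares were 47.6% (30 of 63) and 68.3%. From 10 to 50 FPKM they were 67.6% (23 of 34) and 73.7%. The share was thus below the background in the 3 ranges, and nearest to it in the highest; the differences in share were not tested.

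**Figure D2:**
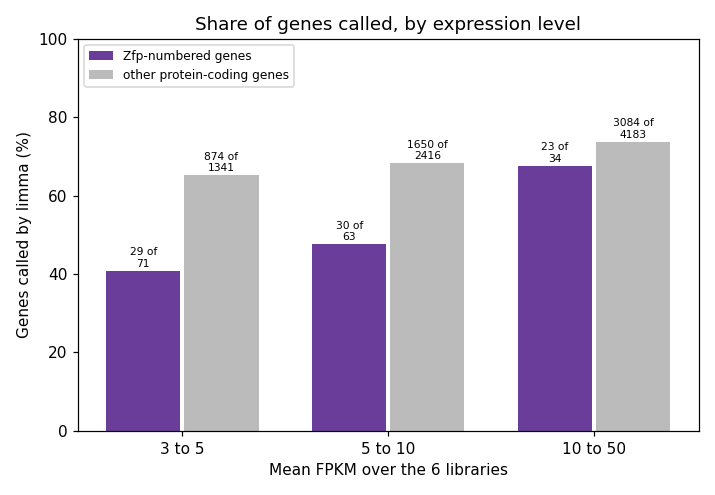
Share of genes called by limma (%) in 3 ranges of mean FPKM, for Zfp-numbered genes and for other protein-coding genes; the numbers above the bars are genes called of genes tested. The Zfp-numbered bars stand at 40.8%, 47.6% and 67.6%, under the bars of other genes at 65.2%, 68.3% and 73.7%.

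Ranked by the difference in log2(FPKM + 1), the largest rises were in Zfp428, Zfp605 and Zfp958, the last 2 of them KRAB genes. Zfp428 (chr7:24507006-24515682, mm10), with a single C2H2 finger by the sequence search, was at 10.9, 10.6 and 10.4 FPKM in the libraries labelled aged, against 3.60, 5.28 and 4.74 FPKM in those labelled young. Every library labelled aged was above every library labelled young, by 2.35-fold in the means (log2 difference 1.08 ± 0.11 SE, limma adjusted p = 0.000214). Zfp605 (chr5:110110092-110129794), a KRAB gene with 12 fingers, was at 4.39, 4.43 and 4.59 FPKM in the libraries labelled aged, against 1.74, 1.55 and 1.97 FPKM in those labelled young. The groups did not overlap, at 2.55-fold (log2 difference 0.99 ± 0.07 SE, limma adjusted p = 4.64e-05), and Zfp605 reached the mean of 3 FPKM only through the libraries labelled aged. Zfp958 (chr8:4613167-4630231), a KRAB gene with 13 fingers, was at 11.9, 13.3 and 12.9 FPKM in the libraries labelled aged, against 6.61, 6.33 and 7.33 FPKM in those labelled young, again with no overlap (1.88-fold, limma adjusted p = 6.2e-05). Zfp35, a gene without a KRAB box whose 17 fingers are joined by 14 of the conserved linkers, averaged 6.98 ± 0.231 FPKM in the libraries labelled aged and 4.33 ± 0.247 FPKM in those labelled young (SD, n = 3 each).

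The next rises were between 1.41-fold and 1.53-fold. Zfp219, a partner of Sox9 in mouse cartilage, was at 13.5, 13.3 and 14.0 FPKM in the libraries labelled aged, against 8.58, 9.20 and 8.87 FPKM in those labelled young (1.53-fold, limma adjusted p = 5.11e-05). All 3 values of the first group stood above the second, but exons of Zfp219 overlap those of Tmem253 on the other strand, and the counting's use of strand is not given. Zfp160, a KRAB gene with 18 fingers, averaged 5.83 ± 0.187 FPKM in the libraries labelled aged and 3.88 ± 0.0977 FPKM in those labelled young (SD, n = 3 each). Zfp367, with 2 fingers, averaged 15.3 ± 0.220 and 10.8 ± 0.347 FPKM in that order. Zfp408, whose human counterpart is mutated in an inherited disease of retinal vessels, averaged 6.498 ± 0.528 FPKM in the libraries labelled aged and 4.47 ± 0.271 FPKM in those labelled young. The KRAB genes Zfp317 and Zfp871 rose 1.43-fold and 1.41-fold.

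Zfp955a and Zfp955b, a near-identical KRAB pair on chromosome 17, were also among the 12 largest rises on the log2(FPKM + 1) scale. Zfp955a (chr17:33241519-33255040, minus strand) was at 21.1, 20.4 and 20.7 FPKM in the libraries labelled aged, against 13.2, 13.8 and 14.6 FPKM in those labelled young, and Zfp955b (chr17:33289649-33303196, plus strand) at 14.5, 14.7 and 14.7 FPKM, against 9.86, 10.7 and 9.80 FPKM. Their transcripts match at 98.4% over 2185 bases, so how reads were split between them is uncertain, and their sum is given too. Exons of Zfp955b overlap those of Zfp422-ps on the other strand by 707 bases, which enters the sum. Together they had 2979 reads in the libraries labelled aged and 2037 in those labelled young, or 35.4 ± 0.228 FPKM and 24.0 ± 0.784 FPKM (SD, n = 3 each), a ratio of 1.48. The pair also shares its upstream sequence. The 250 bases before the start are the same letter for letter in both genes in the RefSeq promoter table (GRCm38.p6; Zfp955a at chr17:33255146-33255395 on the minus strand, Zfp955b at chr17:33289294-33289543 on the plus strand), printed here once with matches to CCAAT, on either strand, in capitals.
Zfp955a and Zfp955b: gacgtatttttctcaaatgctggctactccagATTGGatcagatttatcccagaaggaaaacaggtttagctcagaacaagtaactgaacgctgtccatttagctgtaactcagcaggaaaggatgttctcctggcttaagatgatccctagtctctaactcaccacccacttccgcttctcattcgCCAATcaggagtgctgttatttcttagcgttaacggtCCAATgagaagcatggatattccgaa
The window holds 3 such matches. CCAAT was found, on either strand, in the 250-base windows of 66 of the 139 members with an entry (47.5%) and in 33.8% of all 32817 promoters; a match is a description of letters, not a site. The members' windows held a median of 12 CpG, against 6 over all promoters, at a median GC content of 56.4% and 52.4%. Each member gave a single window, at the listed start nearest the deposited one. All promoters means every listed start of any gene, expressed or not. Whether these contrasts are particular to Zfp-numbered genes was not tested.

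The largest falls were mostly in genes without a KRAB box. Zfp395 (chr14:65358389-65398930), whose human counterpart ZNF395 is induced by hypoxia in cultured cells, was at 8.99, 9.99 and 9.95 FPKM in the libraries labelled aged, against 25.8, 25.8 and 25.6 FPKM in those labelled young. The 3 values of each group lay close together and far from the other group, a 2.67-fold lower mean in the libraries labelled aged (log2 difference -1.33 ± 0.05 SE, limma adjusted p = 3.73e-06). Zfp775 (chr6:48602063-48623227), with 12 fingers, was at 1.97, 1.51 and 1.86 FPKM in the libraries labelled aged, against 5.17, 6.13 and 5.95 FPKM in those labelled young. It was 3.22-fold lower, and reached the mean of 3 FPKM only through the libraries labelled young (log2 difference -1.28 ± 0.09 SE, limma adjusted p = 4.1e-05). Zfp970, a KRAB gene on chromosome 2 with 14 fingers, averaged 3.84 ± 0.579 FPKM in the libraries labelled aged and 7.12 ± 0.899 FPKM in those labelled young (SD, n = 3 each); it shares a stretch of 897 bases at 96.4% identity with Zfp965, so its value is uncertain. Zfp639, 1.87-fold lower, overlaps Gm37592 on the other strand.

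Zfp217, Zfp292, Zfp609 and Zfp687 were also among the 12 largest falls. Zfp217, a partner of the LSD1 and CoREST repressor complex and an oncogene in human breast cancer, was at 8.02, 8.78 and 8.91 FPKM in the libraries labelled aged, against 14.6, 14.1 and 14.2 FPKM in those labelled young. The groups did not overlap (1.67-fold lower, limma adjusted p = 4.13e-05). Zfp292, whose human counterpart is mutated in intellectual disability, was at 3.83, 4.26 and 4.25 FPKM, against 7.70, 6.996 and 7.01 FPKM, 1.76-fold lower. Zfp609, which works with the cohesin loader Nipbl and the Integrator complex, was at 8.56, 9.04 and 9.72 FPKM in the libraries labelled aged, against 13.8, 14.5 and 13.9 FPKM in those labelled young, 1.54-fold lower. Zfp687, a member with Zfp592 of a complex around Zmynd8, averaged 6.59 ± 0.452 and 10.2 ± 0.0136 FPKM in the same order (1.55-fold lower), with exons that overlap Pi4kb on the other strand. Zfp316 (a KRAB gene), Zfp41, Zfp414 and Zfp629 were 1.87-fold, 1.93-fold, 1.75-fold and 1.69-fold lower. Zfp41 and Zfp629 reached the mean of 3 FPKM only through the libraries labelled young, and Zfp414 has a near copy in Gm20507.

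**Figure D3:**
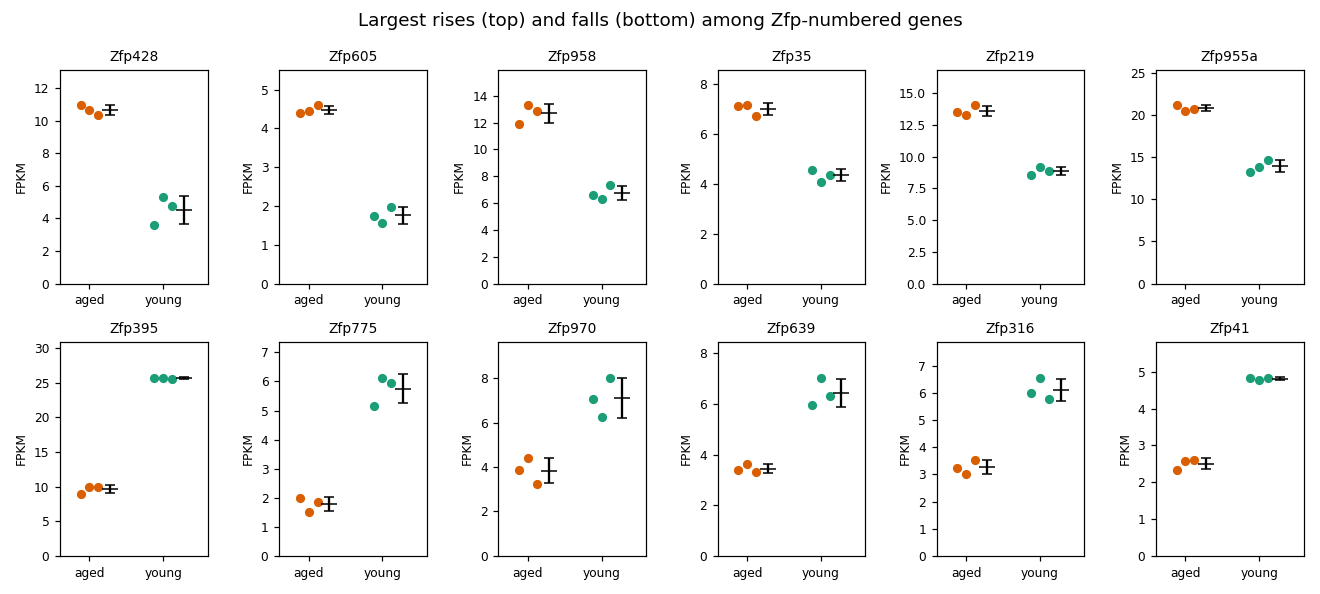
FPKM of the 6 largest rises (top) and 6 largest falls (bottom) per library, with those labelled aged to the left of those labelled young in each panel; points are libraries, and the bar beside them gives the mean and SD (n = 3). No panel shows overlap, and the first panels of each row have means of 10.6 against 4.54 FPKM (Zfp428) and 9.64 against 25.7 FPKM (Zfp395).

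Of the 6 most abundant members, 2 were called, both lower in the libraries labelled aged, and 4 were not. Zfp740 was at 42.6, 40.4 and 42.9 FPKM in the libraries labelled aged and 42.4, 43.5 and 43.6 FPKM in those labelled young, groups that overlap (95% interval of the log2 difference -0.12 to 0.04), though its exons overlap Csad on the other strand. Zfp207 (BuGZ, a kinetochore and spindle protein) averaged 30.7 ± 1.16 and 29.6 ± 0.621 FPKM in that order (limma adjusted p = 0.273, and 0.0302 after median centring), and Zfp385a (an RNA-binding protein and p53 cofactor) 22.4 ± 0.366 and 22.7 ± 1.55 FPKM. Zfp445, a KRAB protein that protects imprints, averaged 22.7 ± 0.803 FPKM in the libraries labelled aged and 24.2 ± 0.451 FPKM in those labelled young (limma adjusted p = 0.0814). The 2 calls were small. Zfp706, which restrains self-renewal in mouse embryonic stem cells, was at 37.5, 34.7 and 36.4 FPKM in the libraries labelled aged, against 42.2, 40.5 and 43.0 FPKM in those labelled young (1.16-fold lower, limma adjusted p = 0.00434). Zfp91, a ubiquitin ligase, was 1.15-fold lower (limma adjusted p = 0.0149, and 0.0696 after median centring). Without both libraries labelled young that held kidney transcripts, the log2 differences of Zfp706 and Zfp91 were -0.16 and -0.13. With all libraries they were -0.20 and -0.19.

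By sequence the members fell into classes. A KRAB A-box was found in 74 members and not in 94, with a gap in the match score (at least 18 of 41 residues against at most 13). The score counts residues identical to a consensus, so a divergent box would be missed, and some of the 94 may carry one. A member without a KRAB box is thus one where this search found none. Members with the box had a median of 12 fingers, against 8 in those without, and a lower median level, 4.63 against 6.66 FPKM; 113 of the 168 members held at least 1 TGEKP linker. The count of fingers reached 37, in Zfp142, and 4 members had none of the C2H2 pattern: Zfp36, Zfp330, Zfp503 and Zfp703. Upstream windows held a median of 9 CpG in members with a KRAB box and 16 in those without.

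Calls in both directions were found in members with and without the box (45.9% and 51.1% called, beside 60% of all tested genes). Of the 74 KRAB members, 17 were higher, 17 lower and 40 not called in the libraries labelled aged (median log2 difference 0.03), and of the 94 without the box 21 were higher, 27 lower and 46 not called (median -0.05). The splits depended on scaling: after median centring they were 26 higher and 9 lower for KRAB members and 30 higher and 20 lower for the others, and after rescaling to TPM 19 and 12 for KRAB members. Without the 2 libraries labelled young that held kidney transcripts, the median log2 difference was 0.05 for KRAB members and -0.03 for the others. The difference between the classes was not tested. In the named extremes, 7 of the 12 largest rises and 2 of the 12 largest falls on the log2(FPKM + 1) scale had a KRAB box (7 and 3 when ranked by the ratio of mean FPKM), and among the 24 members called at 1.5-fold or more the box was found in 3 of 6 that were higher and 7 of 18 that were lower.

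The summed FPKM of KRAB members was higher in the libraries labelled aged, while their median was not apart. All members together came to 1271, 1275 and 1287 FPKM in the libraries labelled aged, against 1295, 1289 and 1281 FPKM in those labelled young, ranges that overlap. KRAB members summed to 465, 468 and 464 FPKM in the libraries labelled aged, against 436, 440 and 437 FPKM in those labelled young. Members without the box summed to 805, 807 and 823 FPKM, against 859, 850 and 844 FPKM. The groups did not overlap in either class, and the KRAB share of the members' sum was 36.1% to 36.7% in the libraries labelled aged, against 33.7% to 34.1% in those labelled young. Without Zfp955a and Zfp955b, which carry much of that rise in level, KRAB members summed to 429 to 433 FPKM and 412 to 415 FPKM in the same order. As a share of the FPKM of the whole library, KRAB members held 0.154% to 0.157% in the libraries labelled aged, against 0.141% to 0.145% in those labelled young, while members without the box held 0.266% to 0.279% and 0.273% to 0.285%, which overlap. A sum is dominated by its most expressed genes: the median KRAB member was at 4.38, 4.69 and 4.60 FPKM in the libraries labelled aged and 4.64, 4.62 and 4.44 FPKM in those labelled young, which overlap, as do the reads of KRAB members (33007 to 33476 and 32414 to 33032).

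**Figure D4:**
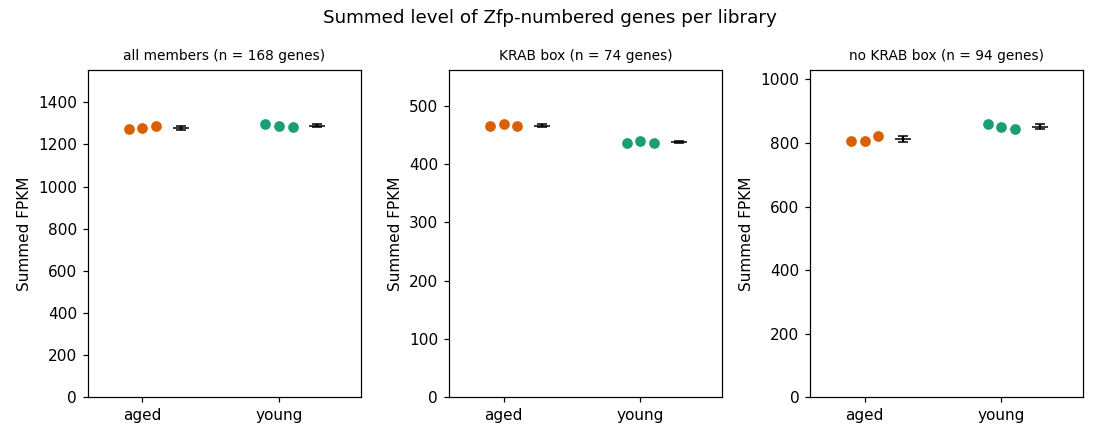
Summed FPKM per library of all 168 members, of the 74 with a KRAB box and of the 94 without, libraries labelled aged to the left; points are libraries and the bars give mean and SD (n = 3). The totals overlap (1271 to 1287 against 1281 to 1295), KRAB sums are higher in the libraries labelled aged (464 to 468 against 436 to 440), and sums without the box are lower in FPKM (805 to 823 against 844 to 859) but overlap as a share of the library.

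Members known for imprints and retroelements, all KRAB proteins, showed 1 rise and 1 fall among 6. Of these 6, 33.3% were called, beside 60% of all tested genes and 70.6% of protein-coding genes at or above 3 FPKM. Zfp809, which silences murine leukaemia proviruses through their primer binding site in mouse embryonic cells, was at 8.66, 9.44 and 8.98 FPKM in the libraries labelled aged, against 7.71, 8.39 and 7.44 FPKM in those labelled young. The groups were just separate (1.15-fold, limma adjusted p = 0.0259), and leaving out any 1 of 4 libraries (replicates 2 and 3 labelled aged, replicates 1 and 3 labelled young) gave adjusted p from 0.055 to 0.0837. Without the libraries with kidney transcripts the difference was 0.09, against 0.18 with all libraries. Zfp316 is the fall given above. Zfp568, which represses a placental Igf2 transcript in mice, was at 5.51, 5.16 and 5.84 FPKM, against 5.24, 4.75 and 4.40 FPKM, and was not called (limma adjusted p = 0.0776, and 0.0349 without replicate 1 labelled young). Zfp932, a repressor of endogenous retroviruses with a near copy in Gm15446, averaged 5.64 ± 0.294 FPKM in the libraries labelled aged and 5.83 ± 0.0797 FPKM in those labelled young, with a 95% interval of the log2 difference from -0.16 to 0.07. The other 10 genes of this list, Zfp57 among them, were under the threshold.

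Genes of the machinery that KRAB proteins recruit were read beside the KRAB members. Of 25 genes for the TRIM28 corepressor, heterochromatin and linked complexes, 6 were higher, 11 lower and 8 not called (median log2 difference -0.14), a split that became 9 and 9 after median centring. The share called, 68%, lies near the background of 60% of all tested genes and 70.6% of protein-coding genes at or above 3 FPKM. The 4 with the smallest p, given here, were lower in the libraries labelled aged, beside the 6 that were higher. Cbx1, heterochromatin protein HP1 beta, was at 25.6, 25.8 and 26.1 FPKM, against 33.6, 33.9 and 34.1 FPKM in those labelled young, 1.31-fold lower. Hdac2, a histone deacetylase, Daxx, a histone chaperone, and Morc2a, an ATPase that works with the HUSH silencing complex, were 1.32-fold, 1.41-fold and 1.46-fold lower.

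Members that act on RNA or ribosomes showed 4 rises and 2 falls among 11. The share called was 54.5%, beside 60% of all tested genes and 70.6% of protein-coding genes at or above 3 FPKM. Zfp346 (JAZ), which binds double-stranded RNA, was at 14.9, 14.9 and 15.96 FPKM in the libraries labelled aged, against 11.2, 11.9 and 11.9 FPKM in those labelled young (1.30-fold, limma adjusted p = 0.000532). Zfp330, a nucleolar protein, was at 10.2, 9.86 and 10.1 FPKM, against 8.21, 7.53 and 7.94 FPKM (1.27-fold). Zfp622, which takes part in maturation of the large ribosomal subunit, averaged 14.0 ± 0.543 and 12.2 ± 0.393 FPKM in the same order, and Zfp106, an RNA-binding protein needed by motor neurons in mice, 22.1 ± 0.691 and 20.002 ± 0.527 FPKM. Each of these 4 rises was 1.30-fold or less. For Zfp106 the limma adjusted p was 0.0548 without replicate 2 or replicate 3 labelled young. Without the libraries with kidney transcripts the log2 difference was 0.15 for Zfp106 and 0.21 for Zfp622, against 0.14 and 0.19 with all libraries. The falls were Zfp638, linked in human cells to silencing of unintegrated retroviral DNA, at 5.9995 ± 0.0848 FPKM in the libraries labelled aged and 7.43 ± 0.138 FPKM in those labelled young, and Zfp598, the ubiquitin ligase that marks collided ribosomes, at 19.97 ± 0.857 and 22.8 ± 1.02 FPKM (SD, n = 3 each). The call of Zfp598 was lost after median centring (limma adjusted p = 0.0711), without replicate 2 labelled aged (0.0517) and without replicate 2 labelled young (0.0522). Zfp36 (tristetraprolin), which drives decay of mRNAs with AU-rich elements, was at 4.36, 3.48 and 4.04 FPKM in the libraries labelled aged and 3.73, 3.93 and 4.76 FPKM in those labelled young, groups that overlap (95% interval of the log2 difference -0.29 to 0.18).

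DNA-binding factors found in most cell types gave 3 rises and 3 falls among 11. That is 54.5% called, beside 60% of all tested genes and 70.6% of protein-coding genes at or above 3 FPKM. Beside Zfp219, Zfp367 and Zfp292, given above, Zfp384 (Nmp4), a nuclear matrix protein of bone-forming cells, averaged 4.21 ± 0.0371 FPKM in the libraries labelled aged and 3.62 ± 0.195 FPKM in those labelled young (1.16-fold, limma adjusted p = 0.0246). Zfp384 has a near copy in Gm11405, and its adjusted p was 0.0592 to 0.0714 with any 1 of 4 libraries left out (replicates 1 and 2 labelled aged, 2 and 3 labelled young). Zfp143 (Staf), which activates small nuclear RNA genes and takes part in chromatin loops, was at 5.71, 5.94 and 6.25 FPKM, against 8.23, 8.17 and 7.63 FPKM, 1.34-fold lower (limma adjusted p = 0.000752). Zfp362 was 1.24-fold lower (limma adjusted p = 0.0179, but 0.0519 after median centring and 0.0583 without replicate 3 labelled young). Zfp148 (ZBP-89) was level, at 10.9 ± 0.447 and 10.9 ± 0.394 FPKM in the 2 groups, with a 95% interval of the log2 difference from -0.10 to 0.11. Zfp410, an activator of Chd4, averaged 3.46 ± 0.200 FPKM in the libraries labelled aged and 3.01 ± 0.120 FPKM in those labelled young (limma adjusted p = 0.0584, and 0.0161 after median centring).

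Members linked to mesenchyme and development gave 1 rise and 3 falls among 5. Of these 5, 80% were called, beside 60% of all tested genes and 70.6% of protein-coding genes at or above 3 FPKM. In these libraries Col1a1, Col1a2 and Mki67 were also lower in the group labelled aged. Pdgfrb was slightly higher there without overlap, while Vim and Top2a overlapped between the groups. Zfp516, a driver of brown fat genes in mice, was at 12.6, 13.3 and 15.8 FPKM in the libraries labelled aged, against 17.8, 18.0 and 17.3 FPKM in those labelled young (1.27-fold lower, limma adjusted p = 0.00844). Without the libraries with kidney transcripts its log2 difference was -0.36, against -0.33 with all libraries. Zfp703 and Zfp503 belong to the NET family of repressors and went in opposite directions. Zfp703 was at 9.86, 10.8 and 11.4 FPKM, against 13.3, 12.2 and 12.3 FPKM (1.18-fold lower, limma adjusted p = 0.0172), but 0.0618 after median centring, 0.0522 after rescaling to TPM and 0.0535 without replicate 1 labelled young. Zfp503 was at 6.37, 5.97 and 6.11 FPKM in the libraries labelled aged, against 5.73, 4.99 and 5.33 FPKM in those labelled young (1.15-fold, limma adjusted p = 0.035), and leaving out any 1 library other than replicate 1 labelled young gave adjusted p from 0.0563 to 0.106. The third fall was Zfp609, and 7 of the 12 listed genes, with Zfp423 and Zfp521 among them, were not members. Among 7 members tied to ubiquitin, SUMO or chromatin partners, Zfp217, Zfp687 and Zfp91 were lower. Zfp131, which carries a BTB domain, was higher at 12.6 ± 0.866 FPKM, against 10.4 ± 0.534 FPKM (SD, n = 3 each, limma adjusted p = 0.00967). Without the libraries with kidney transcripts the log2 difference of Zfp131 was 0.22, against 0.25 with all libraries. In the same list Zfp451, a SUMO ligase, averaged 4.26 ± 0.0812 and 4.22 ± 0.241 FPKM and was not called. The share called in this list was 57.1%, beside 60% of all tested genes.

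Along the genome the members lay on 20 chromosomes, with the most on 7 and 17. Chromosome 7 held 35 members, of which 5 were higher, 8 lower and 22 not called: 37.1%, beside 72% of other protein-coding genes at or above 3 FPKM on that chromosome. On chromosome 17, 7 of 26 members were higher and 5 lower (46.2%, beside 69.9%), with a median log2 difference of 0.09 for members and -0.09 for the other genes there. Median centring gave 9 higher and 7 lower on chromosome 7 and 11 higher and 2 lower on chromosome 17. Leaving out the libraries with kidney transcripts gave members a median log2 difference of -0.05 on chromosome 7 and 0.05 on chromosome 17. On chromosome 13, 5 of 10 members were higher and 1 lower (60%, beside 69.6%), and on chromosome 6, 3 of 12 were higher and 5 lower (66.7%, beside 67.5%), shares near the background.

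In 7 of 14 physical clusters both rises and falls were called, in 3 rises alone, in 3 falls alone, and in 1 neither. Of the members in these clusters 46.1% were called, beside 60% of all tested genes. Clusters were taken as runs of Zfp-numbered genes, expressed or not, each within 1 Mb of the next. Those with at least 3 members held 76 members, of which 17 were higher and 18 lower (27 higher and 12 lower after median centring). Their median log2 difference was 0.02, and also 0.02 without the libraries with kidney transcripts. Of the 74 KRAB members, 50 lay in these clusters. The largest, at 21.0 to 23.6 Mb on chromosome 17, held 15 members, all with a KRAB box. There Zfp160, Zfp948 and Zfp995 rose and Zfp53, Zfp820 and Zfp760 fell, the last 2 less firmly: Zfp820 had an adjusted p of 0.0566 after median centring and 0.0566 without replicate 2 labelled young, and Zfp760 one of 0.0479 that was 0.0695 to 0.131 with any 1 of 5 libraries left out. Zfp948, the most expressed of the 6, was at 17.9, 18.9 and 19.4 FPKM in the libraries labelled aged, against 14.4, 15.2 and 14.96 FPKM in those labelled young (1.26-fold, limma adjusted p = 0.000763), and Zfp53 at 2.49, 2.60 and 2.81 FPKM, against 4.17, 3.91 and 4.12 FPKM (1.55-fold lower, limma adjusted p = 0.000448). Both changes were free of overlap, but Zfp53 reached the mean of 3 FPKM only through the libraries labelled young. The other chromosome 17 cluster, at 32.8 to 33.6 Mb, held 9 members, with 4 rises (Zfp955a, Zfp955b, Zfp871 and Zfp101) and 1 fall (Zfp414). Zfp101 reached the mean of 3 FPKM only through the libraries labelled aged.

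Other clusters differed in their balance, on few genes each. At 47.8 to 48.6 Mb on chromosome 6, Zfp775 and Zfp398 fell and Zfp956 rose; Zfp212 was called lower by a narrow margin (limma adjusted p = 0.0493, and 0.0642 to 0.141 without any 1 of 5 libraries). Zfp398 averaged 3.58 ± 0.316 FPKM in the libraries labelled aged and 5.504 ± 0.146 FPKM in those labelled young, and Zfp956 averaged 7.87 ± 0.225 and 6.43 ± 0.256 FPKM in that order (SD, n = 3 each). At 75.6 to 76.9 Mb on chromosome 15 none of 5 members was called higher with all libraries as deposited, though Zfp623 was after median centring (adjusted p = 0.0381) and without replicate 1 labelled aged (0.0288). Zfp41 was at 2.33, 2.58 and 2.59 FPKM, against 4.82, 4.77 and 4.85 FPKM, and so passed the threshold only through the libraries labelled young. Zfp251 was 1.19-fold lower (limma adjusted p = 0.0152, and 0.0559 after median centring). The third call, Zfp7, had a limma adjusted p of 0.0358 that was 0.0523 to 0.104 with any 1 of 5 libraries left out. At 67.0 to 67.8 Mb on chromosome 13, where 4 of 23 Zfp-numbered genes passed the threshold, Zfp65 was at 4.95, 4.79 and 4.84 FPKM in the libraries labelled aged, against 3.88, 3.28 and 3.18 FPKM in those labelled young (1.41-fold, limma adjusted p = 0.00233). Zfp729a rose 1.25-fold (limma adjusted p = 0.00429), and none fell. Without the libraries with kidney transcripts the log2 difference of Zfp729a was 0.21, against 0.27 with all libraries.

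On chromosome 7 the clusters were small and mixed. Zfp428 lay with Zfp526 at 24.1 to 25.2 Mb; Zfp526 was at 4.46, 3.96 and 4.20 FPKM in the libraries labelled aged, against 6.49, 6.05 and 6.34 FPKM in those labelled young, 1.497-fold lower, while Zfp574 between them averaged 5.30 ± 0.122 and 5.68 ± 0.419 FPKM and was not called. At 127.2 to 127.9 Mb, Zfp768 rose 1.33-fold (10.8 ± 0.449 and 8.10 ± 0.217 FPKM), and Zfp629 and Zfp771 fell. Zfp646 was called higher less firmly (limma adjusted p = 0.0294, and 0.0549 to 0.0935 with any 1 of 4 libraries left out). Its exons overlap Zfp668 on the other strand. In the cluster at 4.9 to 5.1 Mb none of 3 members was called with all libraries; without replicate 3 labelled aged, Zfp579 was lower (log2 difference -0.21, limma adjusted p = 0.0377).

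**Figure D5:**
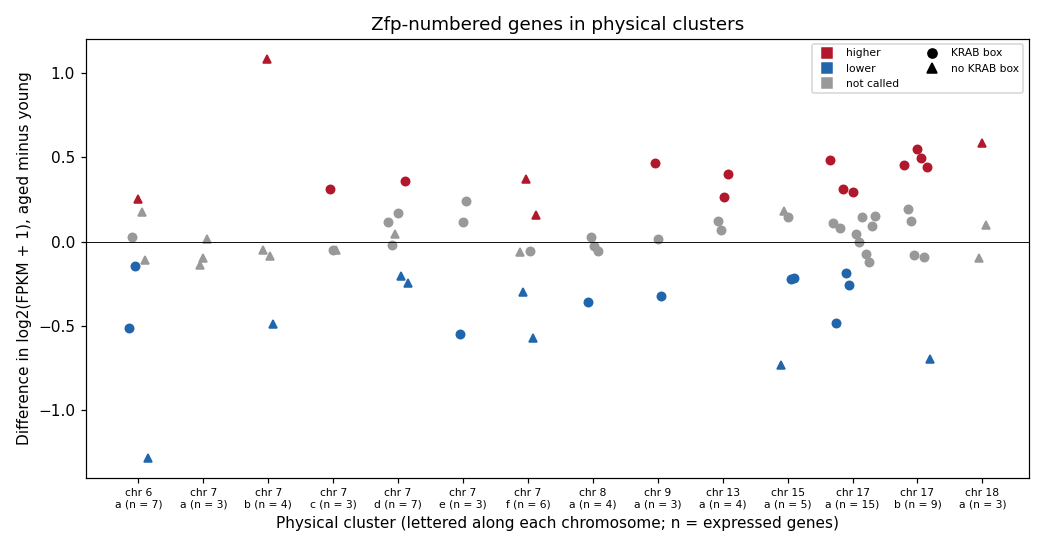
Difference in log2(FPKM + 1), libraries labelled aged minus libraries labelled young, of the 76 members in 14 physical clusters, lettered along each chromosome; colour gives the call and shape the KRAB box. Points lie on both sides of 0 in most clusters, with Zfp428 (1.08) in a chromosome 7 cluster and Zfp775 (-1.28) in the chromosome 6 cluster farthest from it.

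Zinc finger genes with other symbols were read beside the members. Of 36 tested Zbtb genes, which join zinc fingers to a BTB domain, 9 were higher and 8 lower (12 and 6 after median centring); Zbtb38, which binds methylated DNA, was at 9.22, 8.96 and 9.10 FPKM in the libraries labelled aged, against 5.81, 5.57 and 4.997 FPKM in those labelled young, and Zbtb12 was 1.64-fold lower. Of 9 tested Zkscan genes 1 was higher and 2 were lower (2 and 2 after median centring). Among 8 tested Zscan genes, 2 were higher and 1 lower. That one, Zscan21, was at 2.16, 2.34 and 2.49 FPKM in the libraries labelled aged, against 6.61, 6.16 and 7.01 FPKM in those labelled young (2.83-fold lower), and Zscan25 was 1.83-fold higher. The Zfp-numbered genes under the threshold gave 20 higher and 39 lower among 134 tested. The shares called were 47.2% (Zbtb), 33.3% (Zkscan), 37.5% (Zscan) and 44% (Zfp-numbered under the threshold), beside 60% of all tested genes.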

How the data were processed

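RNA of 6 libraries (3 labelled aged, 3 labelled young) was aligned with HISAT2 2.0.5, per the labels' protocols, to mm10, per the submitters' processing notes; for the counting program, the annotation and strandedness the sources used here name nothing. The authors deposited FPKM per gene. Whole reads were recovered from FPKM and gene length (100% of values whole within 0.01), which gives 16649061 to 17456715 reads per library; intervals come from limma and cover the spread between libraries. Values were taken to log2(FPKM + 1), which understates changes of low genes, and the 15197 genes that reached 0.5 FPKM in 3 or more of the 6 libraries were fitted with limma 3.58.1 (R 4.3.3; trended empirical Bayes, 2-sided, Benjamini-Hochberg over all tested genes). Folds are ratios of mean FPKM. The fit was also run on simulated reads with far fewer changed genes than were called here, and no result above rests on that run. Chi-square per degree of freedom was 2.25 to 4.93 between libraries of a group and 77 to 82 between libraries of different groups. Each library was counted as 1 sample, though this spread does not show that they come from different mice.

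The members and lists were chosen with earlier results of these data known. Named genes were the 12 largest rises and falls among called members without overlap, the 6 most abundant, 3 on each side of the threshold, and up to 4 per list or cluster by smallest p; Zfp101, Zfp106, Zfp142, Zfp148, Zfp362, Zfp384, Zfp410, Zfp451, Zfp592, Zfp598, Zfp760, Zfp820 and Zfp932 were named after their values were seen. C2H2 fingers (C, 2 to 4 residues, C, 12 residues, H, 3 to 5 residues, H) and KRAB boxes (at least 15 of 41 residues identical to a consensus of 124 windows) were read from translated GENCODE vM21 coding sequence; the deposited coordinates matched that annotation for 162 of 168 members. Near copies share at least 95% of at least 300 transcript bases (15 members, 8 called), and 14 members (8 called) overlap exons of another gene at or above 1 FPKM by at least 100 bases. Alternatives were other pseudocounts, filters, scalings (median centring, TPM), limma without trend, protein-coding genes alone, the replicate number as a block, each library left out, other level thresholds and cluster gaps, and, added after the data were seen, voom on recovered reads and a fit without the 2 libraries that held kidney transcripts.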

Additional observations from a re-analysis of the deposited data

How the results depend on the processing

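With any 1 library left out 72 to 80 members were called, against 82, of which 70 to 77 were among the 82, and 89 by voom on the recovered reads (82 shared), an alternative added after seeing the data. Leaving out replicates 1 and 3 labelled young, also added later, gave 54 called, 53 of them shared, with 25 lower; over all genes 43.7% were then called. Genes at or above 1 FPKM gave 127 called with 73 lower, and genes at or above 5 FPKM gave 53 with 26 lower. Median centring gave 29 lower members, against 44. The members' median log2 difference was -0.023, and 0.043 after median centring, 0.00098 after rescaling to TPM, 0.0028 without replicates 1 and 3 labelled young, -0.042 for genes at or above 1 FPKM and -0.034 to -0.0055 with 1 library left out. The cause was not tested, beyond the genes and libraries that each setting adds or drops.

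The replicate numbers showed no pairing of the samples. Deviations of same-numbered libraries correlated at 0.00562, -0.00793 and 0.0192, and in no same-numbered pair was each library the other's nearest. The replicate block gave 76 called members (38 higher, 38 lower), 75 of them shared. Over the 95 named members, 1615 alternatives gave 1504 unchanged calls, 90 lost calls, 21 gained calls and 0 reversed calls. These alternatives include the fit that leaves replicate 2 as the only library labelled young, which has less precision. The 24 largest rises and falls kept call and direction in all of their 408. They were picked as the largest called differences without overlap in these same libraries, which favoured that outcome in advance. The planned edgeR test was not run, since the deposited values are FPKM. A median of 466 reads a member in a library and 3 libraries a group limit the precision: of the 86 members not called, the 95% interval went beyond a 1.2-fold change of FPKM + 1 in all but 57.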
